A study of Rattus norvegicus with 9 samples.

Results

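The 10 genes described here, Igf2, Ptgds, Slc6a13, Slc13a4, Dcn, Lum, Ogn, Fmod, Mgp and Foxc1, are named for the fibroblast-like cells of the meninges and of the perineurial and other sheaths around a ganglion. They were chosen by gene symbol from the 20413 genes of the deposited expression table. All 10 were among the 17187 genes that reached a mean of 0.1 FPKM (fragments counted on a gene, scaled by transcript length and by the library's mapped fragments) over the 9 RNA-Seq libraries and were tested.

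The libraries came from the L4-6 dorsal root ganglia (DRGs) of the treated side, where the sensory neurons of the hind limb have their cell bodies, in male Sprague Dawley rats aged 8 to 10 weeks. Each of the 3 groups had 3 libraries, from 3 rats a group, taken on day 10 once the rats had been perfused with saline. Control rats were sham rats, which were anesthetized with an open, cut O-ring around the ankle. Rats of the CPIP group (chronic post-ischemic pain, a model of complex regional pain syndrome type I) had the hind paw made ischemic with a tight O-ring for 3 h under the same anesthesia and then reperfused. CPIP+EA rats had the same ischemia and received electroacupuncture at 100 Hz, once a day for 10 days, at the bilateral acupoints Zusanli and Kunlun. The 9 libraries hold no group with needles and no current and no group with electroacupuncture and no ischemia, so needling, restraint and current cannot be told apart. The comparisons asked whether the levels of these genes differed with the ischemia and with the treatment.

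Ganglia are wrapped in a capsule that continues with the meninges at the dorsal root and with the perineurium along the nerve. The inner meninges (arachnoid and pia) are built from fibroblast-like cells that carry transporters for GABA, sulfate and organic anions, make retinoic acid and secrete prostaglandin D2 synthase and IGF2 into the cerebrospinal fluid. The perineurium is a layered epithelium-like sheath that forms the blood-nerve barrier with tight junctions. Between the axons lie endoneurial fibroblasts, which make collagen and the small leucine-rich proteoglycans that bind and space its fibrils. Because the libraries are of whole ganglia, fewer cells of a type and less RNA per cell cannot be told apart in any value below.

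The defining markers of these cell types were present at unequal levels. Of 21 other leptomeningeal genes, all 21 passed the filter, with Aldh1a2 (retinoic acid synthesis) at 1.80 to 9.26 FPKM and Zic1 (a transcription factor of meningeal cells) at 1.88 to 5.80 over all libraries, while Lama1 was at only 0.08 to 0.24. Of 9 perineurial genes, Slc2a1 (the glucose transporter GLUT1), Itgb4 (integrin beta 4) and Cldn1 (the tight junction protein claudin-1) stood at 25.5 to 36.1, 107 to 144 and 10.8 to 25.4 FPKM. Moxd1 was at 0.04 to 0.28, Lypd2 at 0 to 0.59 and Msln (mesothelin) at 0 to 1.84. The libraries thus held transcripts of genes from both lists, with several perineurial markers near 0. In whole ganglia these values do not show which cells the transcripts came from.

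RefSeq promoter windows of the rat build GRCr8 were found for 7 of the 10 members, in 8 windows since Igf2 has 2. The 250 bases before the annotated start are printed for a pair of genes that followed each other across the libraries (Ptgds and Igf2) and for a pair from the other set of members described below (Lum and Ogn), 5′ to 3′, with CpG dinucleotides in capitals. Ptgds is at chr3:28682979-28683228, minus strand, Igf2 (first window) at chr1:207253981-207254230, minus strand, Lum at chr7:34245456-34245705, plus strand, and Ogn at chr17:15258996-15259245, minus strand.
Ptgds: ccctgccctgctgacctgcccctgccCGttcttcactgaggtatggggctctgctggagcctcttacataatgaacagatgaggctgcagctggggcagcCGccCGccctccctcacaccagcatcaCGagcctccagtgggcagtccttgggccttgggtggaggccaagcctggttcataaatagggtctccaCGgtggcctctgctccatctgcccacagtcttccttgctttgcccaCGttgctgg
Igf2: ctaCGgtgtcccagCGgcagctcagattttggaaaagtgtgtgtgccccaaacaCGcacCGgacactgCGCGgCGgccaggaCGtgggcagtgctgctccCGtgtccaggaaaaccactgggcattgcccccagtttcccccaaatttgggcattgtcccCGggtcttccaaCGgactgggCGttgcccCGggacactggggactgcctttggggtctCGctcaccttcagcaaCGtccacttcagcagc
Lum: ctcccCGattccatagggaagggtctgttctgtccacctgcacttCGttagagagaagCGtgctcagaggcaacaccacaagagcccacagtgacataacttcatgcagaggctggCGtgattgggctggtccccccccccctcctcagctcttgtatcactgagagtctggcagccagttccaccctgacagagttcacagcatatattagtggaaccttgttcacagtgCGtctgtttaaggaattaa
Ogn: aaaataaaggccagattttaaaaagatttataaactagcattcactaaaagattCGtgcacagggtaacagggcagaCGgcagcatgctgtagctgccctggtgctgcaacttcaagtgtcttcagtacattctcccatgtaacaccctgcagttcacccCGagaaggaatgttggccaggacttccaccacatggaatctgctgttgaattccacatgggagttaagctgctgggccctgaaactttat
CpG counts in these 250 bases were 6 for Ptgds, 15 for the first and 7 for the second Igf2 window, 5 for Lum and 3 for Ogn, against a median of 5 over 33469 promoters. Slc13a4 had 4 and Fmod 5. Foxc1 (chr17:32844101-32844350, minus strand), a forkhead factor required for meningeal development, had 29, more than 94.0% of all promoters. The forkhead core GTAAACA, searched on both strands of the whole windows of 300 bases, was in 0 of the 8 member windows and in 3.78% of all promoters. The letters TATAAA were in 1 of the 8, that of Ogn, as 2 overlapping hits of opposite strand near its upstream end, and in 14.2% of all promoters. These counts describe letters in short windows, and nothing follows from them on the factors that bind there.

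Mean FPKM over the 9 libraries, which is scaled by transcript length and so can be compared between genes, ordered the members as Ptgds (583), Dcn (489), Mgp (261), Lum (89.55), Ogn (42.35), Igf2 (11.35), Slc13a4 (9.50), Slc6a13 (8.03), Fmod (3.30) and Foxc1 (2.34). Ptgds, Dcn and Mgp ranked 68, 90 and 246 of all genes in the table. The ranges over the 9 libraries of Ptgds and Dcn, of Dcn and Mgp, and of each neighbouring pair from Igf2 down to Foxc1 overlapped. Those of Mgp and Lum, of Lum and Ogn, and of Ogn and Igf2 did not overlap.

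Igf2 (gene ID 24483) encodes insulin-like growth factor 2, an imprinted growth factor that meninges and choroid plexus go on making in the adult. It was at 7.07, 3.79 and 20.03 FPKM in control libraries 1, 2 and 3, at 19.86, 11.34 and 17.53 in CPIP libraries and at 5.29, 6.05 and 11.17 in CPIP+EA libraries. The 3 control libraries spanned 5.29-fold and enclosed the values of both other groups. The difference of CPIP from control was 0.90 ± 0.51 (SE) on the log2(FPKM + 0.5) scale, with a 95% interval of -0.26 to 2.06 (limma, adjusted p = 0.735). It was 0.39 without control 2 and 1.52 without control 3. CPIP+EA libraries were all under the CPIP libraries, with a difference of -1.10 ± 0.51 (SE; 95% interval -2.26 to 0.06, adjusted p = 0.997 by limma). The interval included 0. Leaving out 1 library at a time, that difference stayed between -1.41 and -0.90.

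Ptgds (gene ID 25526) encodes lipocalin-type prostaglandin D2 synthase, which makes prostaglandin D2 and carries lipids in the cerebrospinal fluid. Control libraries held 536, 228 and 1020.01 FPKM, CPIP libraries 669, 623 and 804, and CPIP+EA libraries 506, 329.7 and 531. Again control 2 was the lowest and control 3 the highest of all 9 libraries, and the CPIP+EA libraries were all under the CPIP libraries. The differences were 0.48 ± 0.45 (SE) for CPIP against control and -0.64 ± 0.45 for CPIP+EA against CPIP (limma, adjusted p = 0.900 and 0.997). Without control 2 the first became -0.09, and without control 3 it became 0.99, so its direction rested on single libraries. The second lay between -0.76 and -0.42 in all leave-one-out fits.

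Slc6a13 (gene ID 171163) encodes the GABA and taurine transporter GAT2 of leptomeningeal cells. It was at 7.44, 4.21 and 12.74 FPKM in control, at 8.44, 7.60 and 10.07 in CPIP libraries and at 8.16, 5.18 and 8.43 in CPIP+EA libraries. The controls spanned 3.03-fold, in the same order as for Ptgds and Igf2. All 3 groups overlapped, with differences of 0.21 ± 0.33, -0.27 ± 0.33 and -0.06 ± 0.33 (SE, log2 scale) for CPIP against control, CPIP+EA against CPIP and CPIP+EA against control (adjusted p of 0.954 to 0.997, limma). The first was -0.16 without control 2 and 0.58 without control 3, and the second was -0.06 without CPIP+EA 2.

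Slc13a4 (gene ID 503568), a sodium-coupled sulfate transporter of the meninges, choroid plexus and placenta, had its control libraries in the same order but closer together. They held 10.13, 8.97 and 11.17 FPKM, CPIP libraries 7.19, 8.12 and 11.54, and CPIP+EA libraries 13.23, 8.04 and 7.13. CPIP+EA thus held both its highest and its lowest value. Its 3 differences were -0.19, 0.05 and -0.13, each ± 0.23 (SE, log2 scale), with adjusted p of 0.934, 0.997 and 0.879 (limma), and the last 2 changed sign with single libraries left out, to -0.20 without CPIP+EA 1 for CPIP+EA against CPIP and to 0.04 without CPIP+EA 3 for CPIP+EA against control.

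**Figure D1:**
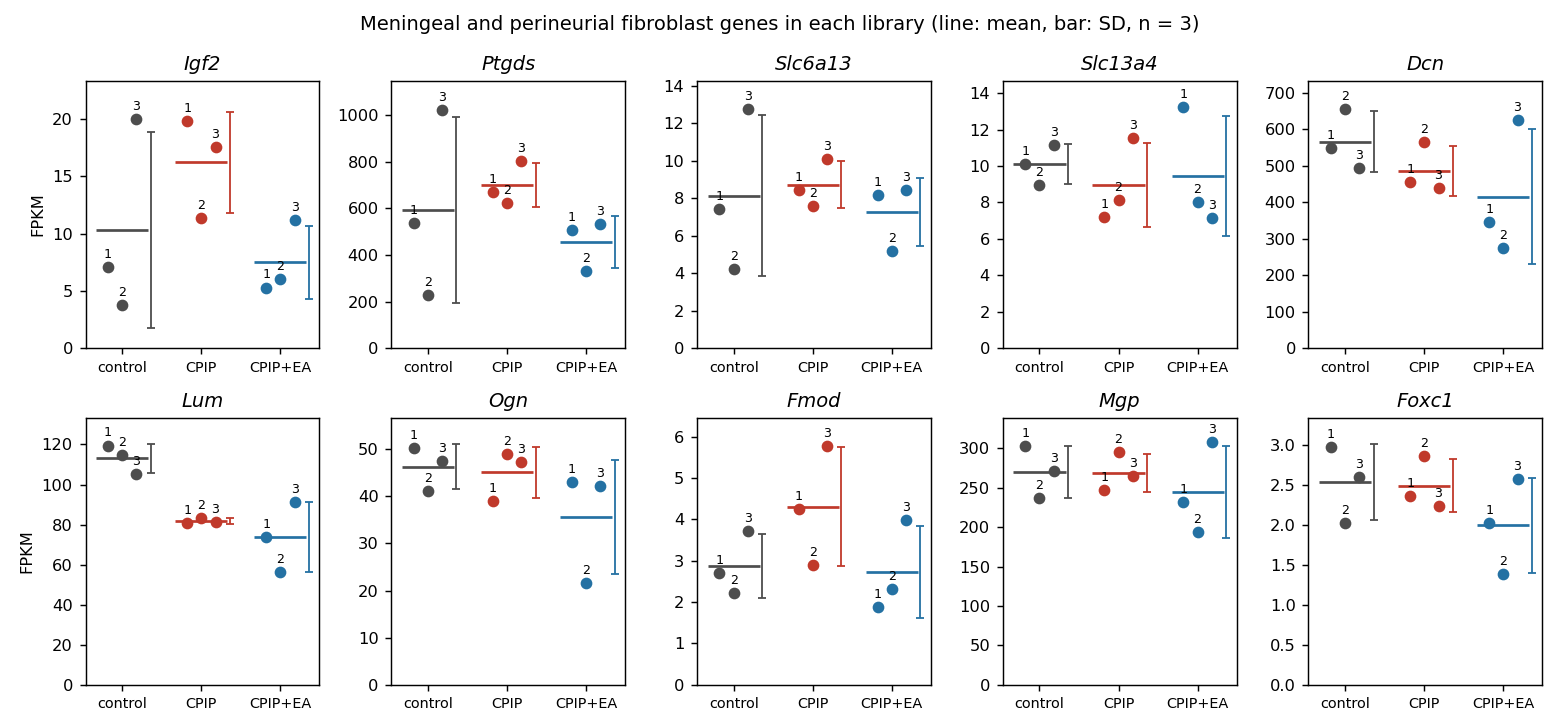
Each panel plots FPKM of 1 gene from 0 for the 3 libraries of each group (points, numbered by replicate), with the group mean as a line and the SD as a bar. The 3 Lum values of control (105 to 119) lie above all 6 others (56.2 to 91.3), and control 2 and control 3 are the extremes of Igf2, Ptgds and Slc6a13.

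Lum (gene ID 81682) encodes lumican, a keratan sulfate proteoglycan that spaces collagen fibrils. It was at 119, 115 and 105 FPKM in control, at 80.59, 83.44 and 81.10 in CPIP libraries and at 73.95, 56.21 and 91.34 in CPIP+EA libraries. No library of either ischemia group reached the lowest control library. CPIP differed from control by -0.46 ± 0.15 (SE, log2 scale; 95% interval -0.79 to -0.14), with an unadjusted p = 0.0108 and an adjusted p = 0.323 in limma. CPIP+EA differed from control by -0.64 ± 0.15 (95% interval -0.97 to -0.31, adjusted p = 0.0839), and its mean of 73.8 ± 17.6 (SD, n = 3) was 0.653 of the control mean of 113 ± 7.16 (SD, n = 3). Neither passed the threshold for a call (adjusted p under 0.01 with a change of 1.5-fold or more in either direction). Leaving out 1 library at a time, the difference of Lum from control stayed between -0.52 and -0.42 for CPIP and between -0.80 and -0.46 for CPIP+EA. Several of the 21 alternative fits cannot change the difference itself, only its p-value or the call. Lum was called in none of the 21. Its lowest adjusted p was 0.0261 for CPIP against control with only those groups in the fit, and 0.0119 for CPIP+EA against control without CPIP+EA 3. CPIP+EA against CPIP was -0.17 ± 0.15 (adjusted p = 0.997) and became 0.01 without CPIP+EA 2.

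Dcn (gene ID 29139) encodes decorin, which binds collagen and transforming growth factor beta and is a common marker of nerve fibroblasts. It was at 549, 657 and 493 FPKM in control, at 456, 565 and 439 in CPIP libraries and at 347, 274 and 625 in CPIP+EA libraries. The CPIP+EA group was split, with CPIP+EA 2 the lowest and CPIP+EA 3 the next to highest of the 9 libraries. The differences were -0.22 ± 0.27, -0.31 ± 0.27 and -0.53 ± 0.27 (SE) for CPIP against control, CPIP+EA against CPIP and CPIP+EA against control (adjusted p = 0.932, 0.997 and 0.480, limma). Without CPIP+EA 3 the last 2 were -0.65 and -0.86, and without CPIP+EA 2 they were -0.05 and -0.27. The first ran from -0.33 without CPIP 2 to -0.11 without control 2.

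Ogn (gene ID 291015) encodes osteoglycin, or mimecan, of the same proteoglycan family. Control libraries held 50.24, 41.13 and 47.59 FPKM, CPIP libraries 38.91, 49.07 and 47.33, and CPIP+EA libraries 43.07, 21.60 and 42.18. CPIP+EA 2 alone lay far below the other 8 libraries. CPIP+EA against control was -0.44 ± 0.24 (SE, log2 scale; adjusted p = 0.510) with it and -0.11 without it, and CPIP+EA against CPIP was -0.40 ± 0.24 (adjusted p = 0.997) with it and -0.07 without it. CPIP against control was -0.04 ± 0.24.

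Fmod (gene ID 64507) encodes fibromodulin, another collagen-binding proteoglycan of this kind and the least abundant of the 4 here. It was at 2.70, 2.21 and 3.71 FPKM in control, at 4.25, 2.89 and 5.77 in CPIP libraries and at 1.87, 2.31 and 3.99 in CPIP+EA libraries. Its group order was that of Igf2, with CPIP highest, and the groups overlapped. The differences were 0.49 ± 0.29 (SE, log2 scale) for CPIP against control and -0.59 ± 0.29 for CPIP+EA against CPIP (adjusted p = 0.754 and 0.997, limma). The first was 0.27 without CPIP 3 and 0.72 without CPIP 2, and the second was -0.37 without CPIP 3 and -0.85 without CPIP+EA 3. CPIP+EA against control ran from -0.36 without CPIP+EA 3 to 0.10 without CPIP+EA 1.

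Mgp (gene ID 25333) encodes matrix Gla protein, an inhibitor of calcification made by vascular smooth muscle and fibroblasts. It was at 302, 236 and 271 FPKM in control, at 247, 295 and 264 in CPIP libraries and at 231, 193 and 307.5 in CPIP+EA libraries, so the CPIP+EA group enclosed the other groups. CPIP and control differed by -0.0037 ± 0.16 (SE; 95% interval -0.37 to 0.36), and CPIP+EA differed from CPIP and from control by -0.16 ± 0.16 each. Without CPIP+EA 2 these were -0.0065 and -0.01, and without CPIP+EA 3 both were -0.34.

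Foxc1 (gene ID 364706) was low, at 2.98, 2.03 and 2.60 FPKM in control, 2.37, 2.87 and 2.24 in CPIP libraries and 2.03, 1.39 and 2.58 in CPIP+EA libraries. Its lowest library was CPIP+EA 2, as for Dcn, Lum, Ogn and Mgp. The differences were -0.01, -0.28 and -0.30, each ± 0.19 (SE, log2 scale), for CPIP against control, CPIP+EA against CPIP and CPIP+EA against control (adjusted p = 0.997, 0.997 and 0.594, limma). The last 2 were -0.09 and -0.11 without CPIP+EA 2 and -0.45 and -0.46 without CPIP+EA 3.

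**Figure D2:**
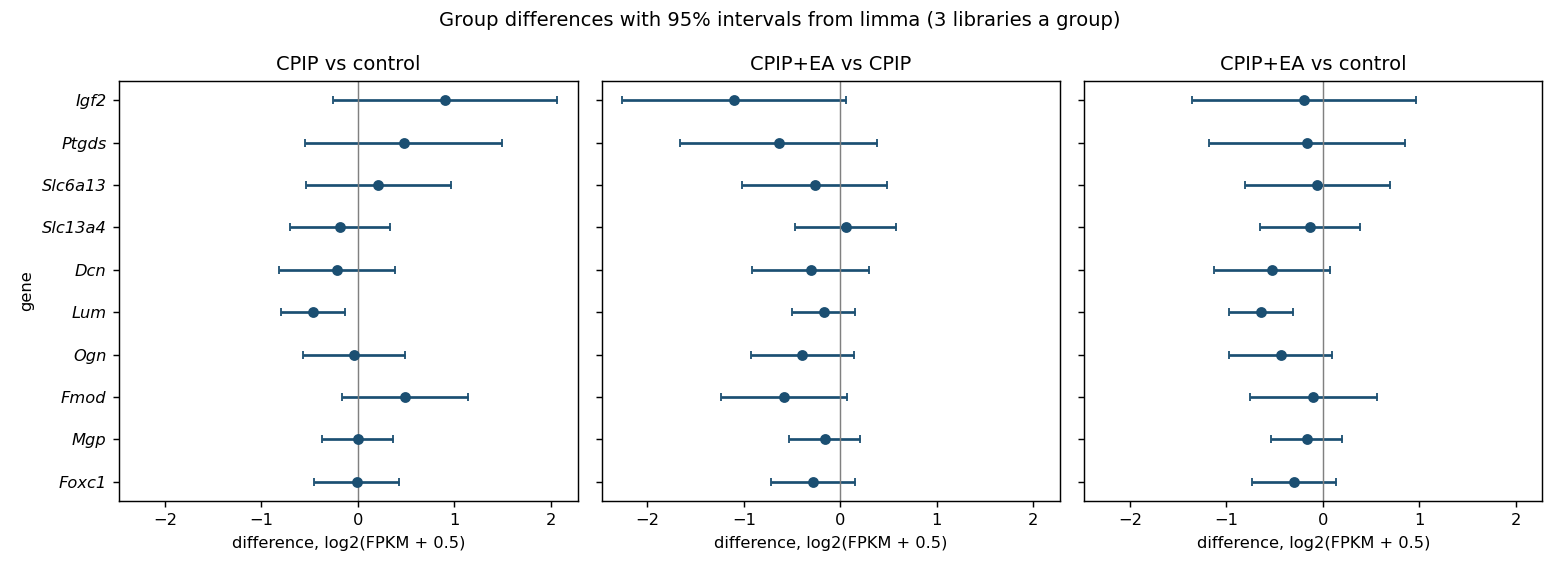
Points are the limma differences of each gene on the log2(FPKM + 0.5) scale in the 3 comparisons, and bars their 95% intervals, with 0 as the vertical line. The intervals of Lum against control (-0.79 to -0.14 for CPIP and -0.97 to -0.31 for CPIP+EA) are the ones that exclude 0.

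Over the 10 genes, none was called in any comparison. Of all genes tested, 0.355% were called between CPIP and control (61 genes), 0% between CPIP+EA and CPIP (0 genes) and 0.483% between CPIP+EA and control (83 genes). At an unadjusted p under 0.05, limma placed 1 of the 10 (Lum, lower) in CPIP against control, where 8.66% of all genes lay, 0 of 10 in CPIP+EA against CPIP, where 4.29% (738 genes) lay, and 1 of 10 (Lum, lower) in CPIP+EA against control, where 12.2% lay. Groups that did not overlap were found for 1 of 10 (Lum), 2 of 10 (Igf2 and Ptgds, both lower in CPIP+EA) and 1 of 10 (Lum) in the same order, against 15.9%, 8.23% and 16.2% of all genes. A single member is a share of 10%, close to the shares of all genes in the comparisons with control.

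The members' median difference was -0.01 for CPIP against control, where the median over all genes was -0.01 as well, and 6 of 10 were below 0. For CPIP+EA against CPIP it was -0.30 beside 0.01 over all genes, with 9 of 10 below 0 where 45.9% of all genes were. For CPIP+EA against control it was -0.18 beside 0.0014, with 10 of 10 below 0 where 49.6% of all genes were. The last 2 comparisons share the CPIP+EA libraries, and these medians carry no test. Without CPIP+EA 2 they were -0.07 in each, and without CPIP+EA 3 they were -0.50 and -0.41. In CPIP+EA against control the median was -0.43 without control 2, -0.29 without CPIP+EA 1 and -0.11 without control 3, where 6 of 10 were below 0. Rescaling the libraries by quantile normalization, to a common sum or by centring on the median changed the sign of none of the 30 member differences.

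The result for the treated group thus depended on which CPIP+EA libraries were in the fit. Without CPIP+EA 3, 6 of the 10 (Igf2, Dcn, Lum, Fmod, Mgp and Foxc1) were lower than CPIP at an unadjusted p under 0.05 in limma, where 7.27% of all genes lay, and 5 of the 10 (Dcn, Lum, Ogn, Mgp and Foxc1) were lower than control, where 13.8% of all genes lay. These counts were 0 and 2 (Lum and Ogn) without CPIP+EA 1 and 0 and 1 (Lum) without CPIP+EA 2. The shares of all genes were 6.82% and 13.4% without CPIP+EA 1 and 2.99% and 10.4% without CPIP+EA 2. The members' lowest adjusted p without CPIP+EA 3 were 0.523 and 0.0119, and none was called.

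Members varied more between libraries of 1 group than most genes did. The within-group SD of log2(FPKM + 0.5) had a median of 0.37 over the members and of 0.13 over the 13914 genes with a mean of at least 1 FPKM. It was 0.77 for Igf2, larger than that of 98.1% of these genes, 0.67 for Ptgds (97.6%), 0.49 for Slc6a13 (96.3%), 0.42 for Fmod (94.95%) and 0.39 for Dcn (94.1%). Ogn (92.4%), Slc13a4 (91.8%), Foxc1 (86.5%), Mgp (82.7%) and Lum (78.9%) followed. With a spread of this size, 3 libraries a group left 95% intervals of 1.16 to either side for Igf2 and 1.02 for Ptgds on the log2 scale, against 0.33 for Lum.

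Correlations between members were taken on log2(FPKM + 0.5) over the 9 libraries. By these the members were sorted into 1 set of 4 (Igf2, Ptgds, Slc6a13 and Fmod) and 1 set of 5 (Dcn, Lum, Ogn, Mgp and Foxc1), with Slc13a4 in neither. Ptgds and Slc6a13 had a Pearson r of 0.974 over the 9 libraries (0.988 after subtraction of the group means), Igf2 and Ptgds 0.883, Igf2 and Fmod 0.867 and Igf2 and Slc6a13 0.822. The lowest r in this set was 0.632, for Slc6a13 and Fmod. In the other set Mgp and Foxc1 had 0.948, Ogn and Foxc1 0.879, Dcn and Lum 0.838 and Ogn and Mgp 0.816, and the lowest was 0.648, for Lum and Mgp. Between the sets r ran from -0.006 (Igf2 and Lum) to 0.556 (Ptgds and Foxc1). Ptgds and Slc6a13 had 0.013 and 0.022 with Dcn but 0.511 and 0.526 with Ogn, so the sets were not sharply apart. The highest r of Slc13a4 with any other member was 0.369, with Ogn. These values are descriptions over 9 libraries that share their normalization, and the grouping was made after the values were seen.

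**Figure D3:**
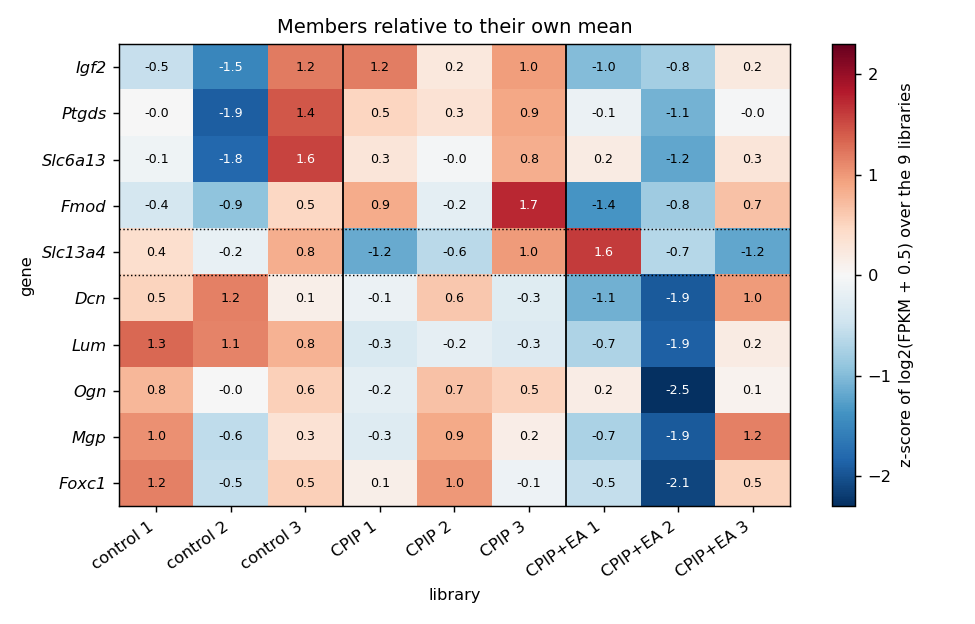
Rows are genes and columns libraries, and colors and numbers give each value as a z-score of log2(FPKM + 0.5) within its row. Control 2 (-1.5 to -1.9) and control 3 (1.2 to 1.6) are at opposite ends for Igf2, Ptgds and Slc6a13, and CPIP+EA 2 is at -1.9 to -2.5 for Dcn, Lum, Ogn, Mgp and Foxc1.

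Ratios within a library varied less for some pairs of a set than for others. Ptgds over Slc6a13 ranged from 54.05 in control 2 to 82.0 in CPIP 2, a 1.52-fold span, while each gene alone spanned 4.48-fold and 3.03-fold. Dcn over Lum ranged from 4.59 to 6.85, a 1.49-fold span. Ptgds over Igf2, also a pair of 1 set, ranged from 33.7 in CPIP 1 to 95.7 in CPIP+EA 1, a 2.84-fold span. Ptgds over Dcn, the 2 most abundant members, ranged from 0.347 in control 2 to 2.07 in control 3, a 5.97-fold span within the control group. In the 3 control libraries Ptgds and Dcn were in opposite order, with Dcn spanning 1.33-fold, while Ptgds and Slc6a13 were in the same order.

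**Figure D4:**
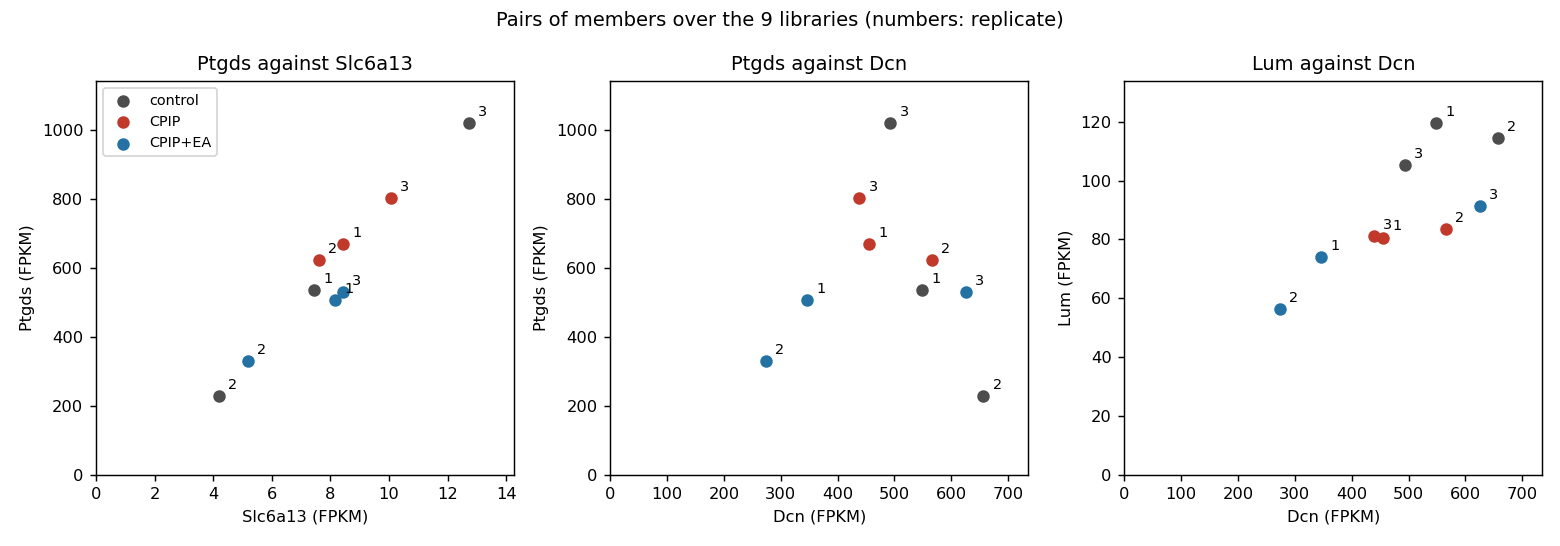
Each panel plots FPKM of 1 gene against another for the 9 libraries, colored by group and numbered by replicate, with both axes from 0. Ptgds and Slc6a13 lie near 1 line (r = 0.974), Ptgds and Dcn do not (r = 0.013), and Lum and Dcn are in between (r = 0.838).

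Several of the proteoglycan genes lie in clusters, by the gene order of RefSeq GRCr8. Dcn and Lum are neighbours and are followed by Kera (keratocan, 0 to 0.16 FPKM) and Epyc (epiphycan, 0.64 to 4.19). Ogn is followed by Omd (osteomodulin, 1.79 to 6.34) and Aspn (asporin, 1.34 to 5.18), and Fmod is next to Prelp (14.3 to 30.2), beyond which lies Optc (opticin, 0.10 to 0.40). Kera and Optc were thus near 0 beside abundant neighbours, while the ranges of Omd and Aspn overlapped. Slc6a13 is next to its paralog Slc6a12 (the betaine transporter, 0.29 to 0.88), and Foxc1 is next to Foxf2 (0.02 to 0.23).

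Of 7 other tested small leucine-rich proteoglycan genes, none was called in any comparison. All 7 were below 0 in CPIP+EA against CPIP (median -0.52) and in CPIP+EA against control (median -0.45), beside 3 of 7 in CPIP against control. Of all genes, 45.9% and 49.6% were below 0 in the first 2. Prelp was at 25.0 to 30.2 FPKM in control and 14.3 to 23.3 in CPIP+EA libraries, with a difference of -0.56 ± 0.18 (SE; limma, adjusted p = 0.222). Bgn (biglycan, the closest relative of decorin) was at 39.3 to 47.8 and 25.0 to 38.9, with a difference of -0.45 ± 0.17 (adjusted p = 0.326). The groups of Prelp, Bgn and Chad did not overlap in CPIP+EA against control, 3 of the 7, where 16.2% of all genes did not, while those of Aspn, Omd, Epyc and Ecm2 did. Without CPIP+EA 2 the differences of Prelp and Bgn were -0.40 and -0.26.

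Of 15 other nerve fibroblast genes tested, none was called. At an unadjusted p under 0.05, 0 lay in CPIP against control, 2 (Clec3b and Pcolce, both lower) in CPIP+EA against CPIP and 6 (all lower) in CPIP+EA against control, where all 15 were below 0 with a median of -0.39. Over all genes the shares at that p were 8.66%, 4.29% and 12.2%, and 49.6% of all genes were below 0 in CPIP+EA against control. In CPIP against control 12 of the 15 were below 0 (median -0.11), where 52.1% of all genes were. In CPIP+EA against CPIP 13 of the 15 were below 0 (median -0.37), where 45.9% of all genes were. Clec3b (tetranectin) was at 10.7 to 12.1 FPKM in control, 10.5 to 11.6 in CPIP and 7.03 to 9.15 in CPIP+EA libraries, a difference from control of -0.47 ± 0.10 (SE; adjusted p = 0.0619). Col1a1 (the alpha 1 chain of type I collagen) was at 162 to 260.06 in control and 87.5 to 155 in CPIP+EA libraries, a difference of -0.84 ± 0.27 (adjusted p = 0.230). Col3a1 (type III collagen) and Pcolce (the enhancer of procollagen cleavage) differed from control by -0.65 ± 0.23 and -0.58 ± 0.20 (adjusted p = 0.284 and 0.286). The summed level of the 15 was 522 to 670.4 in control, 429 to 608 in CPIP and 309, 317 and 538 in the 3 CPIP+EA libraries, of which the last is CPIP+EA 3. Most of that sum was Col1a1 and Col3a1.

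Of the 21 other leptomeningeal genes, none was called. In CPIP+EA against CPIP, 19 of 21 were below 0 with a median of -0.37, where 45.9% of all genes were below 0, beside 10 of 21 (median 0.01) in CPIP against control and 19 of 21 (median -0.24) in CPIP+EA against control, where 49.6% of all genes were. At an unadjusted p under 0.05, 1 lay in CPIP against control, 2 in CPIP+EA against CPIP and 3 in CPIP+EA against control, against 8.66%, 4.29% and 12.2% of all genes. The 2 were Zic2 (3.71 to 5.03 FPKM in CPIP and 1.5 to 2.75 in CPIP+EA, difference -0.81 ± 0.29 (SE), adjusted p = 0.997 in limma) and Cdh1 (E-cadherin of the arachnoid barrier, -0.14 ± 0.06). Crabp2, a retinoic acid binding protein, went the other way. It was at 17.5 to 25.9 FPKM in control, 32.3 to 39.99 in CPIP and 38.1 to 47.4 in CPIP+EA libraries, a difference from control of 0.77 ± 0.15 for CPIP (adjusted p = 0.0566) and of 0.93 ± 0.15 for CPIP+EA (adjusted p = 0.0179), both short of the threshold. Tbx18, a factor of mural and meningeal cells, was at 2.29 to 3.20, 1.66 to 2.14 and 1.25 to 2.68 FPKM. The summed level of the 21 was 189.5 to 266 in control, 230.5 to 251 in CPIP and 174 to 231 in CPIP+EA libraries. The largest part of that sum was Cdh1 (56.6 to 67.8 over all libraries), and the sum included Crabp2.

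Of 9 perineurial genes, 2 lay at an unadjusted p under 0.05 in CPIP against control, both lower, where 8.66% of all genes lay, and none was called. In CPIP+EA against CPIP 0 of 9 lay there (4.29% of all genes), and in CPIP+EA against control 1 of 9, Msln (12.2% of all genes). Msln was at 1.0 to 1.84 FPKM in control and 0.32 to 0.97 in CPIP (difference -0.84 ± 0.33 (SE), adjusted p = 0.509 in limma). In CPIP+EA libraries it was at 0 to 0.61, a difference from control of -1.20 ± 0.33 (adjusted p = 0.165). With pseudocounts of 0.1 and 1 the difference of Msln from control was -1.27 and -0.61 for CPIP and -2.12 and -0.83 for CPIP+EA. Perp (a desmosome protein) was at 13.5 to 15.5 in control and 11.5 to 12.4 in CPIP (-0.25 ± 0.09, adjusted p = 0.467). Cldn1 was at 13.9 to 25.4, 13.5 to 20.09 and 10.8 to 17.7 in the 3 groups. The summed level of the 9 was 201 to 220.0 in control, 187 to 232.5 in CPIP and 179 to 208 in CPIP+EA libraries. Most of that sum was Itgb4.

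**Figure D5:**
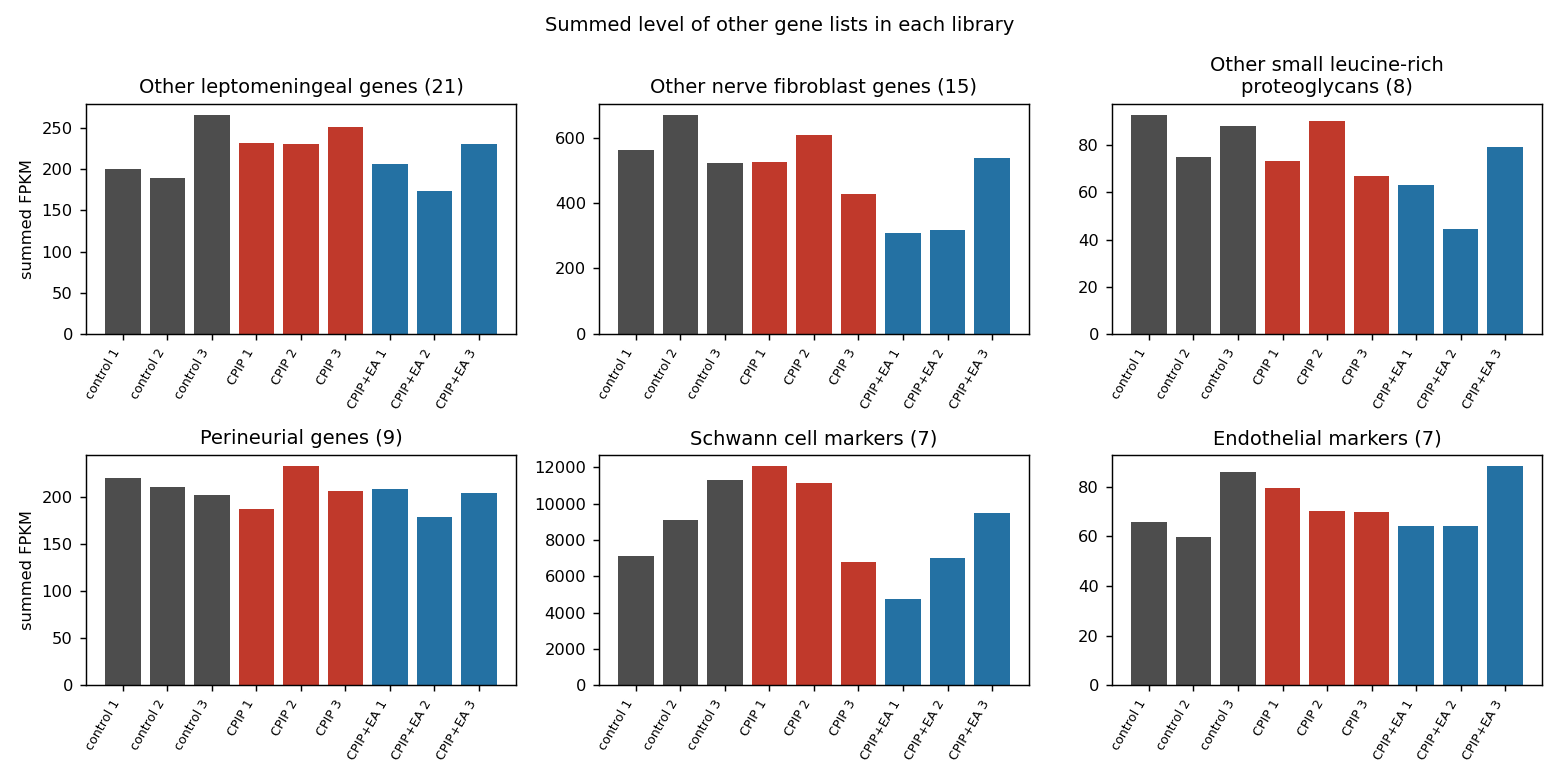
Bars give the summed FPKM of each list in each library, from 0, colored by group, with the number of genes in the table in each title (7 of the 8 other proteoglycans were tested). CPIP+EA 2 has the lowest sum of the leptomeningeal genes (174), of the other proteoglycans (44.4) and of the perineurial genes (179), and CPIP+EA 1 and 2 have the lowest of the nerve fibroblast genes (309 and 317).

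Pathway partners of the secreted members were followed as well. Of 12 tested genes of the IGF2 pathway, 0, 2 and 2 lay at an unadjusted p under 0.05 in CPIP against control, CPIP+EA against CPIP and CPIP+EA against control, beside 8.66%, 4.29% and 12.2% of all genes, and none was called. Igf1, the sister ligand, was at 11.0 to 16.1 FPKM in control, 11.2 to 12.1 in CPIP and 8.26 to 9.87 in CPIP+EA libraries, a difference of CPIP+EA from control of -0.54 ± 0.13 (SE; limma, adjusted p = 0.0941). Igf2r, the receptor that clears IGF2, was at 6.76 to 7.72, 6.76 to 6.96 and 5.85 to 6.30, and Igfbp3, a binding protein, at 7.83 to 8.77, 7.60 to 9.89 and 6.20 to 7.88. Igfbp5 was at 62.2 to 110.01, 48.4 to 96.1 and 33.3 to 66.5. Igf1 and Igfbp5 had their highest means in control, unlike Igf2.

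Of 6 tested genes of the prostaglandin D2 pathway, none lay at an unadjusted p under 0.05 in any comparison. Ptgdr, the DP1 receptor, was at 2.42 to 3.33, 1.87 to 3.00 and 2.41 to 3.79 FPKM in the 3 groups, Ptgs1 (cyclooxygenase 1) at 1.95 to 3.05, 1.94 to 2.51 and 2.02 to 2.36, and Ptgs2 (cyclooxygenase 2) at 0.20 to 0.33, 0.17 to 0.30 and 0.13 to 0.24. The enzymes upstream and the receptor downstream of Ptgds were thus far less abundant than Ptgds itself. Among the GABA and taurine transporter genes, Slc6a11 (GAT3) was at 2.25 to 2.93 FPKM in control and 1.42 to 1.81 in CPIP (difference -0.49 ± 0.16 (SE), adjusted p = 0.352). In the sulfate and dicarboxylate transporter family, Slc13a3 was at 11.6 to 16.3 in CPIP and 9.94 to 11.0 in CPIP+EA libraries (difference -0.32 ± 0.14, adjusted p = 0.997).

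Markers of other tissues also varied between the libraries. All 7 Schwann cell markers were below 0 in CPIP+EA against CPIP (median -0.48), where 45.9% of all genes were below 0. At an unadjusted p under 0.05 in limma lay 1 of the 7, beside 4.29% of all genes. Their summed level was 7135 to 11320 FPKM in control, 6789 to 12080 in CPIP and 4772 to 9463 in CPIP+EA libraries, lowest in CPIP+EA 1. Cartilage, bone and tendon markers summed to 67.6 in control 2 and to 20.0 to 49.05 in the other 8 libraries, and skeletal muscle markers to 139 in CPIP 2 and 7.66 to 42.5 elsewhere. CPIP+EA 3 had the highest sums of erythroid markers (2377 FPKM, beside 252 and 905.5 in CPIP+EA 1 and 2), macrophage markers (183, beside 120.1 and 97.4) and adipocyte markers (7.46, beside 1.85 and 2.27). Spinal cord glia markers summed to 9.99 to 14.7 in control, 9.70 to 13.0 in CPIP and 13.3 to 21.1 in CPIP+EA libraries. Most of that sum was 1 gene, Gfap, at 6.06 to 11.7, 6.26 to 9.65 and 9.25 to 16.65. Over all libraries Mog was at 2.26 to 3.12, Aqp4 at 0.20 to 1.10 and Mobp at 0 to 0.45. Sensory neuron markers summed to 8766 to 10800 in control, 8898 to 9233 in CPIP and 8321 to 10140 in CPIP+EA libraries. Satellite glia markers summed to 3829 to 3965, 4018 to 4333 and 4239 to 4422 in the same order. Most of the satellite glia sum was Apoe (3420 to 4006 over all libraries). Of all the marker lists of other cell types, 1 gene in 1 comparison was called. The comparison was CPIP+EA against control, where 0.483% of all genes were called. The gene was the lipid droplet gene Cidec of adipocytes (limma, adjusted p = 0.00795). It was at 0.04 to 0.11 FPKM in control, 0.45 to 0.71 in CPIP (adjusted p = 0.0224) and 0.52 to 0.73 in CPIP+EA libraries. The call held in 6 of 20 alternatives and was lost with quantile normalization, after rescaling to a common sum, at a pseudocount of 1, with the replicate block, with only the groups compared and without any 1 library. Over all 20 its adjusted p ran from 0.0045 to 0.0428. The adipocyte gene Plin1 was at 0.09 to 0.12 in control and 0.03 to 0.15 in CPIP+EA libraries. The part of these other cell types in the members' values was not tested.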

How the data were processed

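The 9 RNA-Seq libraries (3 control (sham), 3 CPIP and 3 CPIP+EA) of L4-6 DRGs were analysed, with groups and replicate numbers taken from the sample titles. Poly(A) mRNA was sequenced in single reads of 50 bases. The authors filtered the reads with SOAPnuke 1.5.2 and deposited a table of FPKM values rounded to 2 decimals. The aligner, the genome build and the annotation are not given in the sources used here. The deposited columns of log2 ratios, P-values and Q-values between groups hold the authors' own comparisons and were not used. FPKM keeps no count of reads, so no count test was run, and precision is set by 3 libraries a group. Summed FPKM was 445647 to 482940 per library, with 18279 to 18456 genes above 0.

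FPKM values were transformed to log2(FPKM + 0.5) and tested with limma 3.58.1 in R 4.3.3 (mean-variance trend, all 9 libraries in 1 fit, no covariate), after a filter at a mean of 0.1 FPKM. The p-values were two-sided and were adjusted over the 17187 genes tested by the Benjamini-Hochberg method, and a call needed an adjusted p under 0.01 with a change of 1.5-fold or more in either direction. The script was tested on simulated data. Since nothing ties a library to a litter or a day, p-values measure the spread between these samples.

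The members and all gene lists were chosen with earlier results of these data known, so no p-value is given for a score or list. Of each other list the genes named are at most 4, first those called, then those of smallest unadjusted p, then the most abundant, plus defining markers and chromosomal neighbours. Gene IDs were matched to RefSeq (18746 of 20413, all 10 members) for gene order and promoter sequences of GRCr8 only, and no coordinates of the files were used. Promoters of Slc6a13, Dcn and Mgp were not used here. Alternatives were pseudocounts of 0.1 and 1, no filter or a mean of at least 1 FPKM, 3 rescalings, other variance models, a replicate block, only the groups compared, another threshold and each library left out in turn. The qPCR and behavioral measurements were not analysed here, and 1 gene of the lists is not reported here.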

Additional observations from a re-analysis of the deposited data

How the results depend on the processing

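None of the 10 members was called in any of the 3 comparisons under any of the 21 alternatives, whose lowest adjusted p for any member was 0.0261 for CPIP against control, 0.523 for CPIP+EA against CPIP and 0.0119 for CPIP+EA against control, all for limma. The members' median difference ran, with 1 library left out, from -0.11 to 0.09 for CPIP against control, from -0.50 to -0.07 for CPIP+EA against CPIP and from -0.43 to -0.07 for CPIP+EA against control, and so rested on single libraries. The number of all genes called depended on the processing. For CPIP against control it was 61, and became 40 with no filter, 26 with the replicate block, 122 at an adjusted p under 0.05 with no fold limit, and 30 to 62 when 1 library was left out (30 without control 2 or CPIP 3, 34 without control 1 or CPIP 2, 38 without control 3). For CPIP+EA against CPIP it was 0, and became 1 with only the 2 groups in the fit and 0 to 2 when 1 library was left out, the 2 being without CPIP+EA 1. For CPIP+EA against control it was 83, and became 55 with no filter, 42 with the replicate block, 46 with only the 2 groups, 226 at an adjusted p under 0.05 with no fold limit, and 35 to 82 when 1 library was left out (35 without CPIP+EA 2, 47 without control 2, 48 without control 3, 50 without control 1, 54 without CPIP 2). Where the counts moved, the cause was not tested.

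The replicate numbers come from the sample titles, which name no shared animal or day, and same-numbered libraries did not deviate together (correlations of their deviations from the group means of -0.24 to 0.30), so they were not treated as pairs. With the replicate block, 0 members were called in each comparison. At an unadjusted p under 0.05 in limma lay 3 members (Igf2, Lum and Fmod), 2 (Igf2 and Fmod) and 1 (Lum), in place of 1, 0 and 1. Of all genes, 8.26%, 4.05% and 11.9% lay there with the block. Single libraries decided several values. Without control 3, Igf2 (1.52), Ptgds (0.99) and Lum lay at an unadjusted p under 0.05 in CPIP against control (limma), where 7.79% of all genes lay. Without control 2 the differences of Ptgds (-0.09) and Slc6a13 (-0.16) in that comparison were negative. In CPIP+EA against control the differences of Igf2, Ptgds and Slc6a13 were 0.42, 0.35 and 0.31 without control 3 and -0.71, -0.73 and -0.43 without control 2. FPKM keeps no count of reads, and no counting error was set beside the low members Fmod and Foxc1.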

Other observations

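The genes outside the 10 whose log2(FPKM + 0.5) was most like the members' mean z-score over the 9 libraries were Unk (Pearson r = 0.955), Gjb2 (0.954), Prdm11 (0.939), Thbd (0.931), Ace (0.931), Mrc2 (0.920), Col4a5 (0.916), Nr1d2 (0.909), Pdlim2 (0.905) and Gstm3 (0.899). Gjb2 encodes the gap junction protein connexin 26, which leptomeningeal cells carry, Mrc2 a collagen receptor of fibroblasts, Col4a5 a basement membrane collagen and Thbd thrombomodulin. The r values are descriptions over 9 libraries with no test, picked from the 13914 genes with a mean of at least 1 FPKM. Gjb2 is also in the leptomeningeal list.

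After the values were seen, Ptgds and Dcn, 1 gene of each set of members, were looked at singly. The genes most like Ptgds over the 9 libraries included Slc6a13 (r = 0.974), Asb2 (0.970), the organic anion transporter gene Slc22a6 (0.961), RGD1562037 (0.944), Gjb6 (connexin 30, 0.936), Cdhr4 (0.927) and the meningeal transcription factor gene Zic1 (0.920). Of these, Slc22a6, Gjb6 and Zic1 are in the leptomeningeal list, and Slc6a13 is a member. Slc22a6 was at 0.94, 0.33 and 2.99 FPKM in control libraries 1, 2 and 3, a span of 9.06-fold in the same order as Ptgds. The genes most like Dcn were Ltbp4 (0.979), a binding protein of latent transforming growth factor beta, the glypican gene Gpc3 (0.976), Ern1 (0.972), Ccnd2 (0.970) and Ackr3 (0.955), followed in the first 7 by the fibronectin gene Fn1 (0.950). None of these is in the leptomeningeal list or in the nerve fibroblast list.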
